A study of Homo sapiens with 6 samples.

Results

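Polyadenylation factors and poly(A)-binding proteins are described here by the transcripts of 10 genes, namely CPSF1, CPSF2, CPSF3, CPSF6, CSTF1, CSTF3, NUDT21, PABPN1, PABPC1 and PABPC4. Their probes were found by the gene name printed in the array files, which gave 13 probes out of 50599 on the array. CSTF3, NUDT21 and PABPC4 had 2 probes each and the other genes 1. RNA carrying a 7-methylguanosine or trimethylguanosine cap (m7G or m3G) had been immunoprecipitated from total RNA of MOLT-4, a human cell line of T-cell acute lymphoblastic leukaemia, and was hybridised to 1-colour Agilent expression arrays. The mock group has 3 arrays from mock-transfected cells, and the NUDT16 group 3 arrays from cells overexpressing NUDT16, an RNA decapping enzyme. Both groups share the immunoprecipitation, and the comparison asks which transcripts differ in the capped fraction when NUDT16 is supplied. What the mock vector held, its promoter, the number of clones and whether replicates were separate cultures are not given in the sources used here, so the p-values measure the spread between these arrays only. Input RNA was not analysed here, so the capped share of a transcript and its amount cannot be told apart, nor can fewer cells of a type and less RNA per cell.

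Most messenger RNAs receive a poly(A) tail after their precursor is cut. The cleavage and polyadenylation specificity factor recognises the AAUAAA signal and makes the cut, the cleavage stimulation factor binds a downstream GU-rich element, and cleavage factor I binds UGUA elements upstream and takes part in choosing between alternative sites. The nuclear protein PABPN1 coats the growing tail, and cytoplasmic PABPC1 and PABPC4 bind the finished tail, contact the cap-binding complex through eIF4G and influence translation, deadenylation and thereby decapping. NUDT21 is itself a protein of the Nudix family to which NUDT16 belongs, but it binds RNA and has no hydrolase activity.

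Each signal rests on one 60-base probe. Of the probes shown, those for CPSF3 and PABPN1 cover 8148 and 541 bases of the genome (hg19) and so cross a splice junction, as does the PABPC1 probe (997 bases), while the CPSF6 probe and the upstream NUDT21 probe lie within an unbroken stretch. They are shown as the array files list them, 5′ to 3′, with G and C in capitals, because base composition differs among the probes and is set beside the differences between replicates below. Each holds at least 1 reading frame without a stop codon.
CPSF3: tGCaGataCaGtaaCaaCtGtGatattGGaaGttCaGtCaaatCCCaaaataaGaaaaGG
CPSF6: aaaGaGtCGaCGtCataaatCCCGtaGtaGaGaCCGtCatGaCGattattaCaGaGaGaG
NUDT21: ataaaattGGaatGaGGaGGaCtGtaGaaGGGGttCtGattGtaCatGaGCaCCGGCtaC
PABPN1: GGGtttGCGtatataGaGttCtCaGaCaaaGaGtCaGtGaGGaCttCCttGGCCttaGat
G and C made up 35% of the CPSF3 probe, 43.3% of the CPSF6 probe and 45% of each of the other 2, against a median of 43.3% over all probes tested. The lowest and highest among the 13 probes were CPSF2 at 26.7% and the upstream PABPC4 probe at 55%.

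The arrays differed in how much they measured, and 1 of them stands apart. Spots well above background made up 39.3% to 52.0% of the 58717 spots for cell RNA on 5 arrays and 14.6% on NUDT16 replicate 2. Same-numbered mock and NUDT16 arrays shared a slide and a scan. Markers of the immature T lineage fixed for this check were well above background on every mock array for 8 of 10 genes, CD3D, CD3E, CD3G, CD5 and CD4 among them, while MS4A1, MPO, HBB and EPCAM, markers of B cells, myeloid cells, erythroid cells and epithelium, were not on any array. The B-cell marker CD79A and the keratin KRT8 were on all 6 arrays. The summed level of the 10 T-lineage markers ranged from 8.34 to 9.18 (log2) in mock and from 8.45 to 9.32 in NUDT16 arrays. The 2 probes for NUDT16 itself stayed at background on all 6 arrays (intensities from 4.19 to 9.97), so the labelled overexpression was not seen here and the labels were not checked by it. Where intensity is not named, signals are log2 processed intensities after subtracting the 75th percentile of that array. On NUDT16 replicate 2 this percentile, an intensity of 8.66, is itself a background value, since the dimmest probe well above background there read 19.5, and on the other 5 arrays it was 92.5 to 358. Every fitted mean and every difference in pair 2 rests on that scaling. Scaling on the 75th percentile of the probes detected on all arrays instead adds -0.39, 0.18 and -0.039 to every difference of pairs 1, 2 and 3.

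No transcript of the group passed the test. Of the 13 probes, 12 passed the detection filter (well above background on every mock array or on every NUDT16 array) and were tested among 17765 probes, and 0 were called (limma, Benjamini-Hochberg adjusted p under 0.05), against 0.00563% of all probes tested. At an unadjusted p under 0.05 the count was 0 as well, against 0.0844% of all probes (0.0394% higher and 0.045% lower in NUDT16 arrays). With the replicate number as a block, 0 were called and 0 had an unadjusted p under 0.05, where 0.00563% and 8.03% of all probes did (at the unadjusted threshold, 3.53% higher and 4.5% lower). Taking the brightest tested probe of each gene, 8 of the 9 genes tested had a lower fitted mean in NUDT16 arrays, where 48.8% of all genes did, and the median difference over the 9 genes was -0.77 against 0.020 over all genes. These counts are a description only, since 6 of the 9 genes (CPSF1, CPSF3, CPSF6, NUDT21, CSTF1 and CSTF3) passed the filter through the mock group alone. The 3 detected in both groups, PABPN1, PABPC1 and PABPC4, were all lower, with a median of -0.32, where the genes detected on all 6 arrays had a median of 0.26 and 35.4% of them were lower. The median over the 9 genes followed a single pair of arrays. It was -0.24 in the pair of replicate 1, -2.01 in the pair of replicate 2 and -0.12 in the pair of replicate 3, where the medians over all genes were 0.074, -0.054 and 0.0076. By pair, 6, 8 and 7 of the 9 genes were lower, where 45.3%, 51.8% and 49.3% of all genes were. Of the 12 probes, 6 were lower in both pair 1 and pair 3 and 1 was higher in both, where 33.4% and 33.3% of all probes were. With replicates 1 and 3 alone, 5 of the 9 genes were lower (47.6% of all genes were), and the median was -0.15. Scaled on the detected probes, an alternative added after the data were seen, the same 4 arrays gave 8 of 9 lower, where 66.5% of all genes were, and a median of -0.36.

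**Figure D1:**
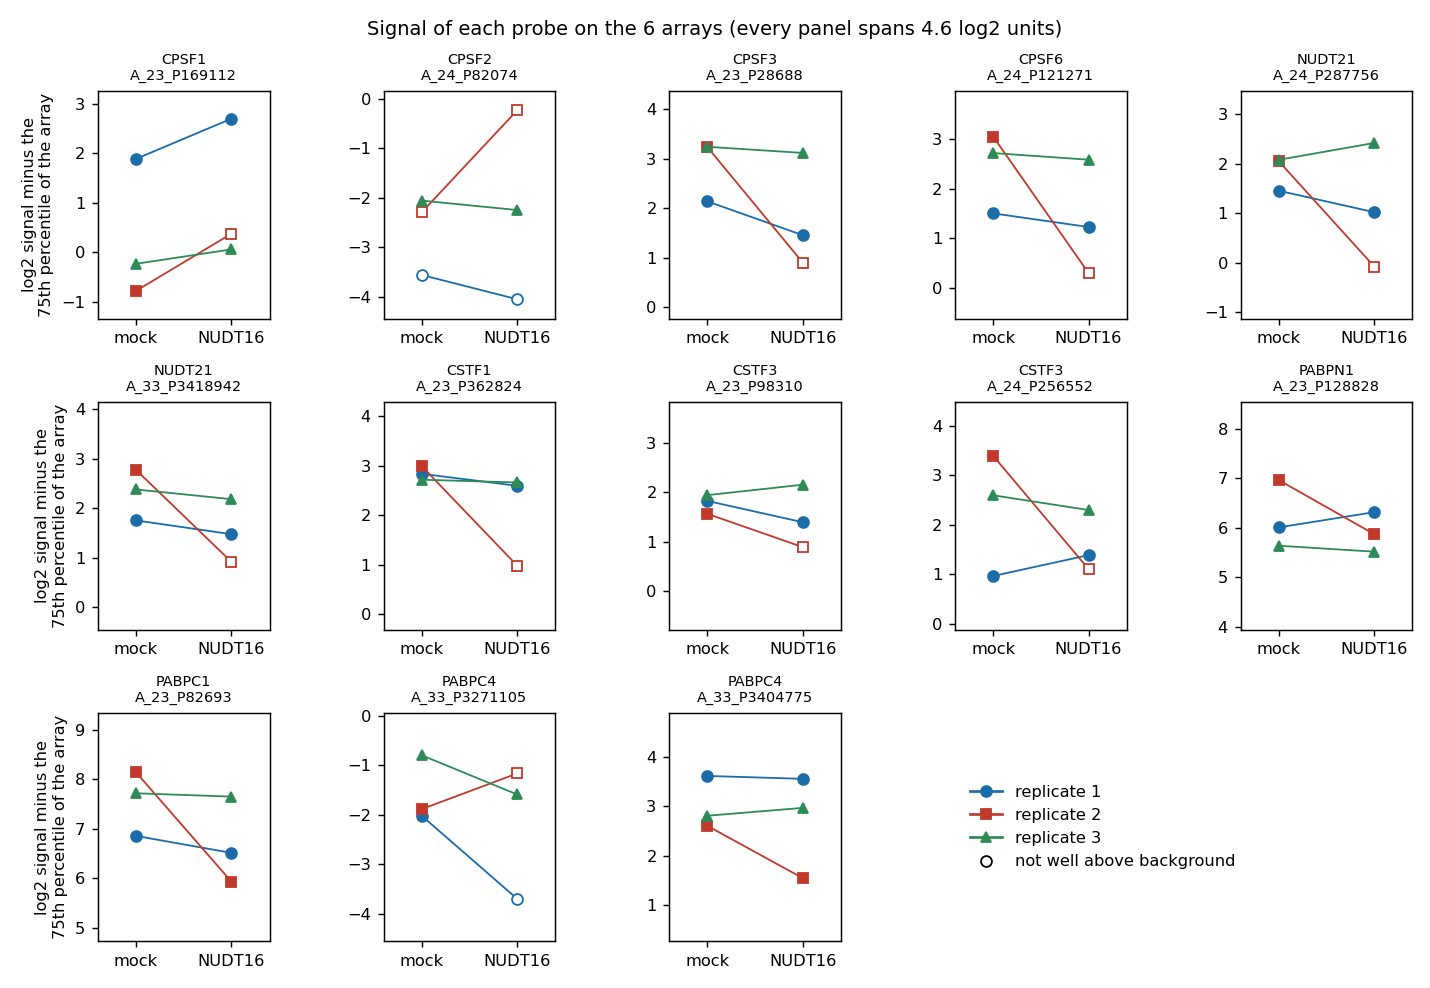
Log2 signal minus the 75th percentile of the array (y axis) for each of the 13 probes in mock and NUDT16 arrays (x axis), with lines joining same-numbered arrays and open symbols for arrays on which the probe was not well above background. On NUDT16 replicate 2 only the PABPN1, PABPC1 and second PABPC4 probes have filled symbols, and 10 of the 13 red lines drop, while most blue and green lines span less than 0.5.

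On NUDT16 replicate 2, 3 of the 13 probes, the 3 that were so on all 6 arrays (as were 37.1% of probes tested), were well above background, those for PABPN1 and PABPC1 and the downstream probe of PABPC4, and 9 of the tested probes were not. The lowest signal that counted as well above background on this array was 1.17 on the log2 scale, so the 9 values have only that as an upper bound. Across all tested probes, 37.5% were well above background there. Among the 3245 tested probes that read between 2 and 4 on mock replicate 2, the range that held 7 of the 13 probes here, 71.7% were, and their median difference in this pair was -0.74. At the pair's median of -2.01 or below lay 7.86% of all genes tested. That median is the value of CSTF1, 1 of the 9 below the bound. Its signal is known only to be lower by at least 1.82 (1.64 when scaled on the detected probes), so the rank is not a measured one. The part of the dim array in these differences was not tested.

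Cleavage and polyadenylation specificity factor was represented by its scaffold CPSF1, by CPSF2, a subunit related to the nuclease, and by CPSF3, the endonuclease that cuts the precursor. The CPSF1 probe lies on chromosome 8, positions 145619663 to 145619722 (minus strand, hg19). It read 1.89, -0.78 and -0.23 on mock replicates 1, 2 and 3 and 2.70, 0.38 and 0.059 on NUDT16 replicates 1, 2 and 3. Both replicate 1 arrays were far above the rest, and the groups overlapped. It averaged 0.29 ± 1.41 in the mock group and 1.04 ± 1.44 in the NUDT16 group (SD, n = 3 each). The difference of 0.75 (SE 0.85, limma adjusted p 0.9996) turned to -0.33 when arrays were not scaled, where the median of all genes was -1.06.
CPSF1 was the single gene of the 9 with a higher fitted mean. Its normalised signal was higher by 0.81, 1.16 and 0.29 in the 3 pairs, where 20.0% of all probes were higher in every pair. The value for pair 2 has no measured sign, since the probe was not well above background on NUDT16 replicate 2 and its intensity there was 11.2 against 53.9 on mock replicate 2. With the block the SE was 0.32 (limma adjusted p 0.480).

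The CPSF3 probe (chromosome 2, 9599689 to 9607836) read 2.14, 3.23 and 3.24 on mock and 1.45, 0.90 and 3.12 on NUDT16 arrays. Replicate 3 was high in both groups. It averaged 2.87 ± 0.63 in the mock group and 1.82 ± 1.15 in the NUDT16 group (SD, n = 3 each). The difference of -1.05 (SE 0.69, limma adjusted p 0.9996) was lower in 3 of 3 pairs, by -0.68, -2.34 and -0.12, where 23.1% of all probes were lower in every pair. In pair 2, where it was not well above background on the NUDT16 array, it was at least 4.18-fold lower, or at least 3.70-fold when arrays were scaled on the detected probes.
The CPSF2 probe (chromosome 14, 92629708 to 92629767) was well above background on mock replicate 3 and NUDT16 replicate 3 only and was not tested. Its intensities on those arrays were 60.1 and 75.4, and on the other 4 they lay between 7.37 and 23.9.

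Cleavage factor I was represented by its small RNA-binding subunit NUDT21 and its partner CPSF6. The CPSF6 probe (chromosome 12, 69656195 to 69656254) read 1.50, 3.05 and 2.72 on mock and 1.22, 0.29 and 2.58 on NUDT16 arrays. On NUDT16 replicate 2 it was not well above background, at least 3.69-fold below its partner (at least 3.26-fold when scaled on the detected probes). In the other 2 pairs it was lower by -0.28 and -0.13. The fitted difference of -1.06 (SE 0.71, limma adjusted p 0.9996) was the lowest among the 9 genes.
NUDT21 had an upstream probe at 56481744 to 56481803 and a downstream probe at 56463526 to 56463585 of chromosome 16, where the gene is read on the minus strand. The upstream probe read 1.76, 2.78 and 2.38 on mock and 1.48, 0.92 and 2.19 on NUDT16 arrays, and the downstream probe 1.45, 2.05 and 2.08 against 1.02, -0.079 and 2.42. In both, the NUDT16 replicate 2 value lay lowest. The fitted differences were -0.78 (SE 0.61) upstream and -0.74 (SE 0.69) downstream. In pair 3 the probes had opposite signs, -0.20 upstream and 0.34 downstream.

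Cleavage stimulation factor was represented by CSTF1, its WD-repeat subunit, and CSTF3, the subunit that bridges the complex. The CSTF1 probe (chromosome 20, 54979011 to 54979070) varied least among mock arrays, 2.83, 2.99 and 2.71, and read 2.59, 0.98 and 2.66 on NUDT16 arrays. All NUDT16 values lay under all mock values, the single tested probe of the 12 whose groups did not overlap, where 1.06% of all probes were separated in this direction and 1.38% in either. The margin between the groups, from 2.71 to 2.66, was small beside the SD of 0.95 among NUDT16 arrays, and the difference of -0.77 (SE 0.63) had a limma adjusted p of 0.9996. Pairs 1 and 3 differed by -0.24 and -0.055. Scaled on the detected probes, the CSTF1 groups overlapped and those of PABPN1 did not.

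CSTF3 had its probes listed for different transcript variants. The downstream probe A_23_P98310, listed for the transcript variant NM_001326, lies at 33106225 to 33106284 of chromosome 11. The upstream probe A_24_P256552, listed for NM_001033505 and NM_001033506, lies 76662 bases upstream at 33182887 to 33182946. Whether either sequence is shared with the other variants was not checked. The downstream probe read 1.83, 1.57 and 1.94 on mock and 1.40, 0.89 and 2.15 on NUDT16 arrays, and the upstream probe 0.96, 3.39 and 2.60 against 1.39, 1.10 and 2.30. The upstream signal spread widely among mock arrays, with an SD of 1.24 against 0.19 for the downstream probe (n = 3 each).
Both were at background on NUDT16 replicate 2. In pairs 1 and 3, where both were measured, the upstream probe differed by 0.42 and -0.30 and the downstream probe by -0.43 and 0.21, opposite in sign in each pair. The fitted differences were -0.72 (SE 0.71) upstream and -0.30 (SE 0.59) downstream (limma adjusted p 0.9996 for each).

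The nuclear poly(A)-binding protein PABPN1 was measured on all 6 arrays. Its probe (chromosome 14, 23792691 to 23793231) is also listed for the read-through transcript BCL2L2-PABPN1, so signals of the 2 cannot be told apart. It read 6.01, 6.96 and 5.64 on mock and 6.32, 5.87 and 5.52 on NUDT16 arrays. The values overlapped, and replicate 2 was highest of the mock arrays. Means were 6.20 ± 0.68 (SD, n = 3) and 5.90 ± 0.40 (SD, n = 3), a difference of -0.30 (SE 0.61, limma adjusted p 0.9996) with a 95% interval from -1.61 to 1.01. By pair it differed by 0.31, -1.09 and -0.12, and the fitted sign turned to 0.094 with replicates 1 and 3 alone (-0.12 when these were scaled on the detected probes) and to 0.078 without mock replicate 2.

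PABPC1, the main cytoplasmic poly(A)-binding protein, was well above background on all 6 arrays too. Its probe on chromosome 8 (101715545 to 101716541, minus strand) is listed in the files for accessions that RefSeq now assigns to PABPC3, an intronless relative, and to RLIM, so its signal is not certain to be that of PABPC1 alone. Its intensity was 32672, 26079 and 52585 on mock replicates 1, 2 and 3 and 20308, 528 and 71910 on the NUDT16 arrays. Scaled, these were 6.86, 8.14 and 7.72 against 6.51, 5.93 and 7.65, with NUDT16 replicate 2 lowest. Means were 7.57 ± 0.65 (SD, n = 3) and 6.70 ± 0.87 (SD, n = 3). The difference of -0.87 (SE 0.65, limma adjusted p 0.9996) was lower in 3 of 3 pairs, by -0.34, -2.21 and -0.067. In pair 2 both arrays measured it, and without NUDT16 replicate 2 and its partner the difference was -0.21 (95% interval -0.72 to 0.30), or -0.42 when scaled on the detected probes.
The probe listed under PABPC3 gave differences of -0.58, -2.34 and -0.16 in the same pairs.

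PABPC4, an inducible cytoplasmic relative, had its probes 15768 bases apart on the minus strand of chromosome 1. The downstream probe A_33_P3404775 (40026514 to 40026573) read 3.62, 2.61 and 2.81 on mock and 3.56, 1.55 and 2.97 on NUDT16 arrays, well above background on all 6. Its difference was -0.32 (SE 0.67, limma adjusted p 0.9996), and 0.050 with replicates 1 and 3 alone (-0.17 when scaled on the detected probes).
The upstream probe A_33_P3271105 (40042282 to 40042341) was dim, with intensities of 69.4, 25.0 and 143 on mock and 17.1, 3.85 and 119 on NUDT16 arrays. Detection above background held for 3 mock arrays and 1 NUDT16 array. Scaled, it read -2.02, -1.89 and -0.80 against -3.70, -1.17 and -1.59, so it was lower by -1.68 and -0.79 in pairs 1 and 3 and higher by 0.72 in pair 2, where the NUDT16 value is at background. Over all arrays the difference was -0.58 (SE 0.73, limma adjusted p 0.9996).
With replicates 1 and 3 alone and the replicate block, the upstream PABPC4 probe was the single one of the 12 called, at -1.23 (SE 0.26, limma adjusted p 0.000717), where 2.93% of all probes were called and 2.13% were called lower. CPSF1 joined it at the unadjusted threshold of 0.05 (limma), higher by 0.55, where 21.6% of all probes passed, 12% higher and 9.59% lower. Scaled on the detected probes, CPSF1 no longer passed that threshold, at 0.34 (limma adjusted p 0.555), and CPSF3 had -0.62 (limma adjusted p 0.249). The fit on replicates 1 and 3 has 4 arrays and gave each of the 12 probes the same SE. Its p-values therefore rest on a variance pooled over all probes tested and do not measure the spread of a single probe. The upstream PABPC4 probe had passed the filter through the mock group alone, where it is brighter. Its value in pair 1 is only a bound, lower by at least 0.46 on the log2 scale, and -1.23 averages a reading below that bound. The call therefore rests on 1 pair with both arrays measured, pair 3 at -0.79.

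**Figure D2:**
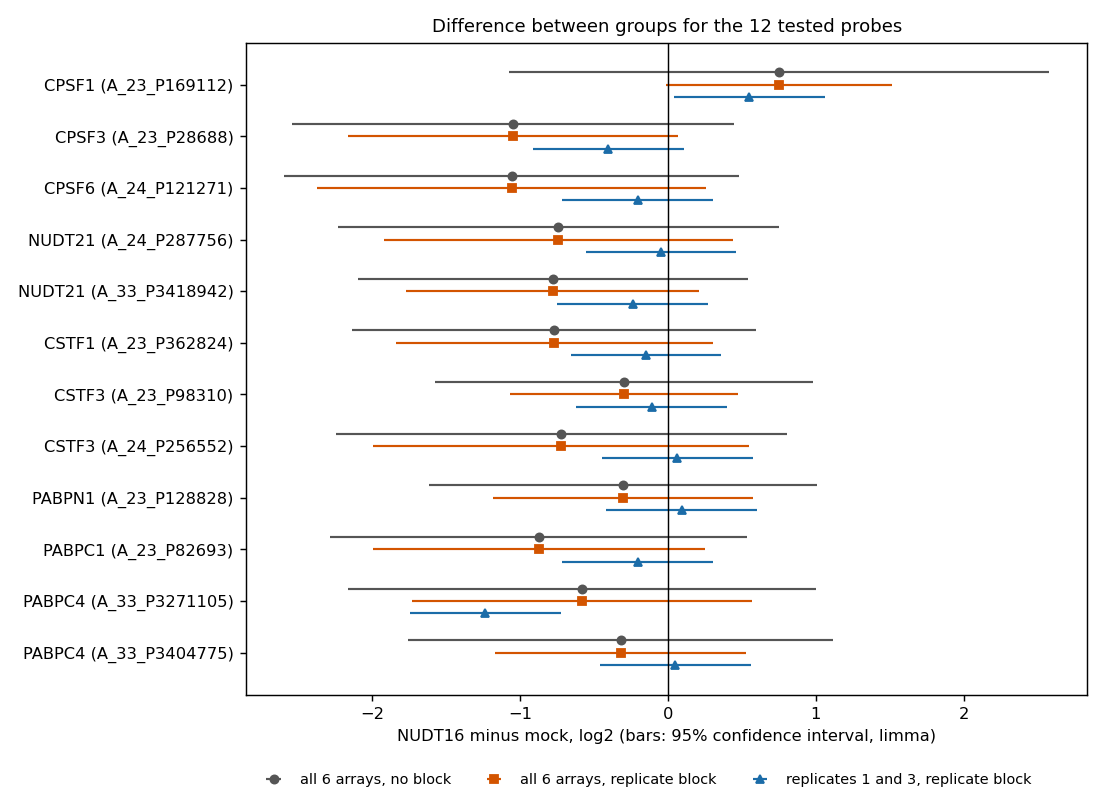
Fitted difference between NUDT16 and mock arrays on the log2 scale (x axis) with 95% confidence intervals from limma, for the 12 tested probes (y axis), from all 6 arrays without a block, with the replicate block, and from replicates 1 and 3 alone with the block. Every interval from all arrays includes 0, with CPSF1 on the higher side, and the upstream PABPC4 probe A_33_P3271105 and CPSF1 lie off 0 in the fit on 4 arrays, where the adjusted p of CPSF1 was 0.197.

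The intervals show what sizes these arrays could not tell apart from 0. Without a block they ran from -2.59 to 0.48 for CPSF6 and from -2.28 to 0.54 for PABPC1. In the fit on replicates 1 and 3, the interval for the upstream NUDT21 probe ran from -0.75 to 0.27 and that for CSTF1 from -0.66 to 0.36.

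**Figure D3:**
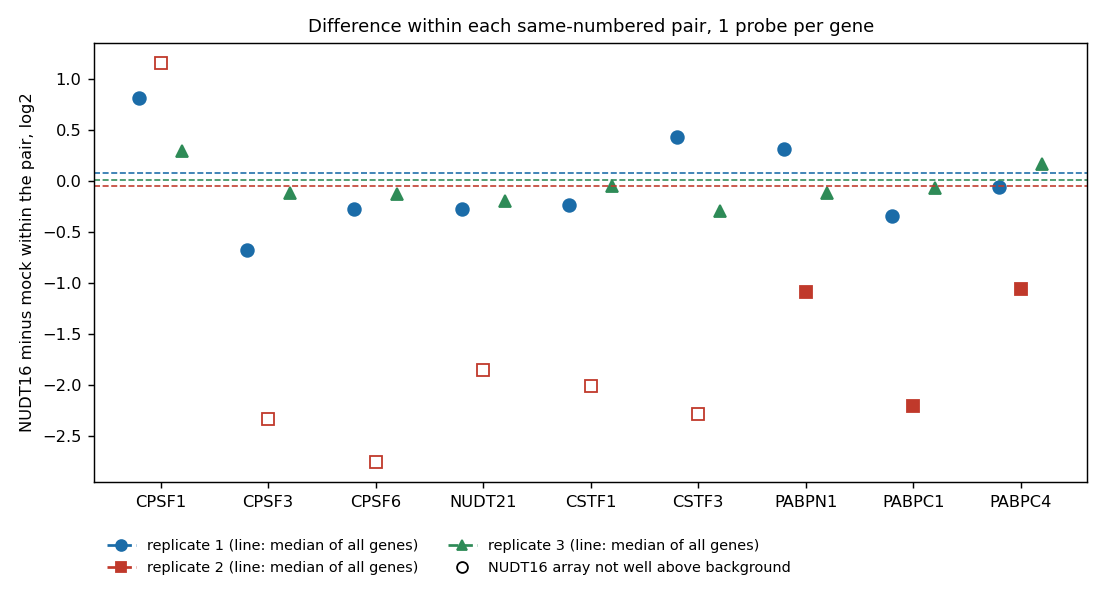
NUDT16 minus mock signal on the log2 scale (y axis) within each same-numbered pair for the brightest tested probe of 9 genes (x axis), with open symbols where the NUDT16 array was not well above background and dashed lines at the median of all genes in each pair. Pair 2 lies between -2.76 and -1.06 for 8 of the genes and at 1.16 for CPSF1, and pairs 1 and 3 lie between -0.68 and 0.81.

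For 9 of the 12 tested probes the replicate number took a larger share of the variation than the group. The exceptions were CSTF1, PABPC1 and the upstream NUDT21 probe. The replicate number has more levels than the group and the shares are not adjusted for this. Its share therefore tends to be the larger even in values without structure. The replicate number took 88.4% of the sum of squares over the 6 arrays for CPSF1 and 79.9% for the downstream PABPC4 probe, and the group 9.47% and 5.36%. At the other end, the upstream NUDT21 probe had 20.4% for the replicate number and 40.4% for the group. PABPC1 had 29.1% and 32.4%, and CSTF1 25.0% and 32.4%. The medians over all tested probes were 75.3% and 9.81%. Between replicates 1 and 3, 3 of the 12 tested probes (CPSF1, PABPN1 and the downstream PABPC4 probe) were higher on replicate 1 in both groups and 8 were lower in both. CPSF1 was higher by 2.12 in mock and 2.64 in NUDT16, while CPSF6 differed by -1.22 and -1.36 and CPSF3 by -1.10 and -1.66. The CSTF1 probe differed by 0.12 and -0.068.

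**Figure D4:**
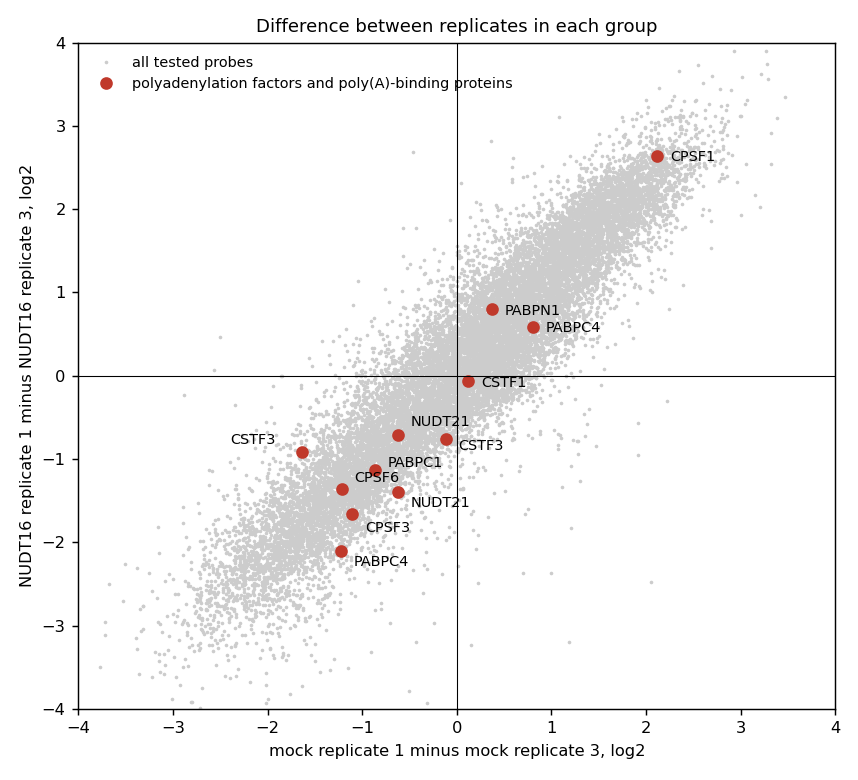
Replicate 1 minus replicate 3 signal on the log2 scale in mock arrays (x axis) and NUDT16 arrays (y axis), with the 12 tested probes as labelled red points over all tested probes in grey (6 of them outside the plotted range). Points lie along the diagonal, with CPSF1 at the upper end and the upstream PABPC4 probe, CPSF3 and CPSF6 toward the lower end.

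Across all 17765 tested probes these replicate differences correlated at r = 0.93 between the groups, as a description of arrays that share slides. Probes over 45% and up to 55% G and C had a median of 0.80 in mock and 1.18 in NUDT16, and those over 35% and up to 45% had -0.13 and -0.15. CPSF1, at 51.7% G and C, lay above the median of its class. The upstream PABPC4 probe, at 55%, had -1.22 and -2.11, and the downstream one, at 36.7%, had 0.80 and 0.59, both away from their class. The part of base composition in these differences was not tested.

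Over the 6 arrays, the signals of CPSF6, CPSF3, NUDT21 and PABPC1 followed one another closely (Pearson's r from 0.96 to 0.996 for their brightest probes), and CPSF1 ran against them (r from -0.63 to -0.58). These arrays share slides and 1 dim array, and the correlations are given as a description. Outside the pathway, the genes most like PABPC1 were UBE2K, EIF1AX and GOLPH3 (r of 0.9998, 0.999 and 0.998 over 6 arrays), and those most like NUDT21 were HDGFRP3, PRPF3 and PSMD12 (r of 0.998, 0.997 and 0.997). UBE2K read 4.58, 6.04 and 5.54 on mock and 4.26, 3.57 and 5.48 on NUDT16 arrays, with NUDT16 replicate 2 lowest, as for PABPC1.

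The other genes of the pathway were examined in lists of 13 cleavage and polyadenylation genes and 9 relatives and partners of poly(A)-binding proteins. All 13 of the first list were tested, and 0 were called higher and 0 lower, with 5 above and 8 below 0 and a median difference of -0.19. Of these, 6 had passed the filter through the mock group alone. PAPOLA, the canonical poly(A) polymerase, was lowest at -0.98 (SE 0.71), lower in 3 of 3 pairs by -0.66, -1.93 and -0.34. CPSF4, the zinc-finger subunit of the specificity factor, was highest at 0.65 (SE 0.78), higher in 3 of 3 pairs by 0.82, 0.61 and 0.52, and the scaffold SYMPK had 0.65, higher by 0.43, 0.49 and 1.02. Their limma adjusted p values were each 0.9996.
With the replicate block 0 of the 13 were called, and 2 (PAPOLA and RBBP6, named after their values were seen) had an unadjusted p under 0.05 (limma, 0.0440 and 0.0451), both lower, where 8.03% of all probes did and 4.5% were lower. RBBP6 had passed the filter through the mock group alone. On NUDT16 replicate 2 it read -0.028, under the lowest detected signal of 1.17 there, so its -1.79 in pair 2 is not a measured size. With replicates 1 and 3 alone the 2 under that threshold were others and higher, CPSF4 and SYMPK (limma, 0.00998 and 0.00536, adjusted 0.121 and 0.0935), where 21.6% of all probes passed and 12% were higher. This depends on the scaling. Scaling on the detected probes adds -0.21 to every difference of that fit. Then 4 tested genes of both lists had an unadjusted p under 0.05 (limma) and 0 were called. Their names and directions, and the share of all probes, were not recorded.
Of the 9 relatives and partners, 6 were tested, 4 of them through the mock group alone, with 0 called in either direction and a median of -0.91. Their medians by pair were -0.18, -2.29 and -0.14. The 6 differences lay between -1.11 for PAIP2B, an inhibitor that binds PABPC1, and -0.0024 for PABPC1L. PABPC5, PABPC4L and PABPN1L were not well above background on any array.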

How the data were processed

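The 10 genes, the lists and the tests were chosen with earlier results of these data known. Agilent Feature Extraction 10.7.3.1 made the scanner files (design 039494, hg19), per the file headers. They hold fluorescence intensity per spot on a linear scale, after background subtraction and detrending, with surrogate values for dim spots and no scaling between arrays, per the file headers. The authors' deposited table holds log2 values. Its making is not given in the sources used here, and on each array its ranks matched those of background-subtracted median intensity (Spearman's rho 1).

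Control spots and outlier spots were left out, log2 processed intensity was shifted by each array's 75th percentile, and spots of a probe were averaged. The test, on probes well above background on every array of 1 group or both, was limma's (version 3.58.1, R 4.3.3, lmFit and eBayes, two-sided, Benjamini-Hochberg over 17765 probes), without a block. The brightest tested probe stood for a gene. Named were every probe of the 10 genes, the extremes of each pathway list and the 3 genes most like PABPC1 and NUDT21 by Pearson's r. A dim value was bounded by the lowest signal well above background on its array. These bounds, the classes by level and by base composition and the sum-of-squares shares were added after values were seen. Procedures were tested on simulated data.

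Same-numbered arrays share slide and scan, and their deviations around the means of their groups had correlations of 0.84, 0.39 and 0.77, so the numbers pair the arrays. Alternatives were other scalings, normexp (offset 50), the authors' table, other filters, the replicate block, other variance models, the mean of a gene's probes, leaving out each array, and replicates 1 and 3 alone. The number of arrays limits the precision.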

Additional observations from a re-analysis of the deposited data

How the results depend on the processing

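The count of 0 called probes held under 18 of 20 alternatives, the replicate block among them (0, with 0 at an unadjusted p under 0.05). It was 1, the upstream PABPC4 probe (at background on 2 NUDT16 arrays), with replicates 1 and 3 and the block, and 1 with that fit scaled on the 75th percentile of the probes detected throughout, a setting added after the data were seen. For other pathway genes it was 0 under all 20. The median over the genes was -1.85 without scaling, when all genes had -1.06, and ranged from -1.07 to -0.47 on leaving out single arrays (-0.47 without NUDT16 replicate 2). Under the other settings it moved by less than the spread between pairs (SD 1.06), to -0.15 with replicates 1 and 3. That spread exceeds the size of the main median, -0.77, so a median of 0 would have counted as unmoved. The median of all genes went from 0.020 to -0.68 with array medians and -0.18 with quantile normalization. It was -0.10 with normexp background correction and -0.15 with the authors' table, which differs in several steps at once. The median over the 9 genes minus that of all genes was -0.79 in the main fit and with array medians. Array medians shift every gene alike, so this gap could not change there. The gap was -0.56 with quantile normalization, -0.77 with normexp and -0.57 with the authors' table.

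Of 183 values for single genes, 176 kept their direction and 0 passed the threshold. The replicate block, the intensity trend and the filters left each gene's difference as it was. Averaging the probes did so for genes with a single probe. Such values could not reverse, so the 176 overstate how far the directions were tried. Reversed were CPSF1 without scaling (-0.33) and, with replicates 1 and 3, CSTF3 (0.062), PABPN1 (0.094) and PABPC4 (0.050), which were -0.15, -0.12 and -0.17 with the detected-probe scaling. Leaving out one array gave -0.075 to 1.55 for CPSF1 (negative without NUDT16 replicate 1), -0.58 to 0.078 for PABPN1 and -0.75 to 0.25 for PABPC4 (positive without NUDT16 replicate 2). The cause was not tested. With the filter on all 6 arrays only PABPN1, PABPC1 and PABPC4 have a value. The block changed no call.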
